A study of Mus musculus with 8 samples.

Results

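The genes described here are 9 genes of the neuromuscular junction and of the response of muscle to loss of its nerve, chosen by symbol from the deposited table, in which they are 9 of 41709 genes. They comprise the 5 muscle subunits of the nicotinic acetylcholine receptor (*Chrna1*, *Chrnb1*, *Chrnd*, *Chrne* and *Chrng*), 2 genes of the machinery that clusters the receptor (*Musk* and *Rapsn*), and 2 genes known for their induction in denervated muscle (*Ncam1* and *Runx1*). The study electroporated the tibialis anterior (TA) muscle of the shin of male C57BL/6J mice with siRNA pools and asked which mRNAs differ when UBA1, the E1 enzyme that activates ubiquitin, is depleted. For each of 4 mice, 1 TA muscle received non-targeting control (NT) siRNAs and the contralateral one received *Uba1* siRNAs, so 4 muscles per group were sequenced. The mice were 3 months old, every muscle in both groups had been injected with hyaluronidase and electroporated, and all were collected 1 week later. No untouched muscle is among the samples, so what electroporation itself did to these genes is in both groups. By the sample titles, all NT muscles were right and all *Uba1* muscles left, and the side and the siRNAs cannot be told apart. RNA came from whole muscle, in which fewer cells or nuclei of a type and less RNA per cell cannot be told apart.

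At the neuromuscular junction the axon of a motor neuron releases acetylcholine onto a small patch of the muscle fibre, where receptors are packed at high density and where the nuclei beneath the synapse transcribe the receptor genes. Agrin from the nerve acts through the receptor Lrp4 on the kinase MuSK, and the scaffold rapsyn then anchors the receptors. In fetal and in denervated muscle the receptor carries the gamma subunit, which in innervated adult muscle is replaced by epsilon, and after nerve injury nuclei all along the fibre transcribe receptor genes under myogenic factors such as myogenin.

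The promoters of these genes are known for short motifs of myogenic and synaptic regulation, and 4 promoter windows are printed to show which motifs they hold. They are taken from RefSeq on build GRCm38.p6, from 250 bases before to 50 bases after a start site, and 6 of the 9 genes matched a window (7 windows in all, since *Runx1* has more than 1). Windows for *Chrnd*, *Rapsn* and *Ncam1* were not used here. Capitals mark the E-box CANNTG, the kind of site that MyoD and myogenin bind, and the N-box CCGGAA, an ETS-factor site known from synapse-specific promoters. Both strands were searched, and the sequences run 5′ to 3′ on the strand of the gene. *Chrna1* (chr2:73580289-73580588, minus strand) encodes the alpha subunit, which binds acetylcholine. *Chrng* (chr1:87205561-87205860, plus strand) encodes the fetal gamma subunit. *Chrne* (chr11:70619145-70619444, minus strand) encodes the adult epsilon subunit. *Musk* (chr4:58285712-58286011, plus strand) encodes the muscle-specific kinase.
Chrna1: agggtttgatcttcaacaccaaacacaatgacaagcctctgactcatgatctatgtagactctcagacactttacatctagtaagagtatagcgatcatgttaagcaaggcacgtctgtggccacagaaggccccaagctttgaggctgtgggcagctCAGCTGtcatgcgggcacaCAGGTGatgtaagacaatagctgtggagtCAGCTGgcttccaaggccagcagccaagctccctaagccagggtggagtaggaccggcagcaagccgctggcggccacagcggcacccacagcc
Chrng: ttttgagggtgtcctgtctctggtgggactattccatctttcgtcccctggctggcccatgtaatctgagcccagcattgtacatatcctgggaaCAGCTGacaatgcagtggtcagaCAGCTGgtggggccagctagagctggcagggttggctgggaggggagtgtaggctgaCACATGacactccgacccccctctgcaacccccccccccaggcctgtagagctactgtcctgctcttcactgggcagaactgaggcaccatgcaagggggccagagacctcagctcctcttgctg
Chrne: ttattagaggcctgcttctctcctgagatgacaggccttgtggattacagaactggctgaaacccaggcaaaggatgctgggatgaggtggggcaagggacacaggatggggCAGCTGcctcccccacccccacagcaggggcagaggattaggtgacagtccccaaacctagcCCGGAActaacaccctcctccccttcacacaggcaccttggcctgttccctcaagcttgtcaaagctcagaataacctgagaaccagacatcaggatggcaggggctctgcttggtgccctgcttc
Musk: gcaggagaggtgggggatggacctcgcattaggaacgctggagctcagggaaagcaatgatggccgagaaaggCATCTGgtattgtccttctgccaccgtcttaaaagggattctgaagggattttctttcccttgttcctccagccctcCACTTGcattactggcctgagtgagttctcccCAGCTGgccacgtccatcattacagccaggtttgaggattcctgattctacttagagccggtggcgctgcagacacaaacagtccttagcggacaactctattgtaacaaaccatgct
The *Chrna1*, *Chrng* and *Musk* windows each hold 3 E-boxes and no N-box, whereas the *Chrne* window holds 1 E-box and 1 N-box, which begins 76 bases before the start site. The 3 E-boxes of *Chrna1* begin 92, 73 and 44 bases before the start site. Of the 7 member windows, 5 hold 3 E-boxes, those of *Chrnb1* and 1 *Runx1* window included, and 2 hold an N-box. Among 32851 windows of the same length, 72.3% hold at least 1 E-box, 17.6% hold 3 or more and 14.9% hold an N-box. The site TGTGGT, which Runx factors bind, was found in 1 member window, that of *Runx1* with 3 E-boxes, and in 16.8% of all windows. These matches describe letters only and say nothing of which factor was bound in these muscles.

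In the knockdown itself, *Uba1* mRNA (X:20524493-20549418 on GRCm39) stood at 60.6, 59.0, 63.6 and 59.1 TPM in the NT muscles and at 18.1, 6.77, 15.8 and 23.1 TPM in the *Uba1* muscles. Every *Uba1* muscle was below every NT muscle. The log2 fold change (log2FC, *Uba1* siRNAs against NT siRNAs on the scale of log2(TPM + 1)) was -1.98 with a standard error (SE) of 0.290, and its adjusted p was 0.0527 by limma over 11530 genes and 0.0278 with the mouse as a block. TPM is a gene's length-corrected share of the transcripts, scaled so that each muscle sums to 1000000, so sequencing depth is unknown and no counting interval is given. Mitochondrial genes took 42.1 to 45.7% of the TPM in the NT muscles and 39.9 to 50.3% in the *Uba1* muscles. Most genes had higher TPM after *Uba1* knockdown (log2FC above 0 for 81.8% of genes, median 0.11), and after scaling each muscle by a median-ratio size factor this share was 50.7% and the median 0.0016. The log2FC of single genes are therefore read against that shift.

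Each of the 9 genes was detected in all 8 muscles, over a wide span of levels. On the TPM scale, which corrects for transcript length, *Chrnb1* was the most abundant, at 44.3 TPM on average over the 8 muscles, and *Chrng* the least, at 0.941 TPM. Between them in falling order came *Rapsn* (25.7 TPM), *Chrne* (14.8), *Chrna1* (12.8), *Chrnd* (3.27), *Musk* (3.07), *Ncam1* (2.72) and *Runx1* (1.40). *Rapsn* exceeded *Chrne*, *Chrna1* exceeded *Chrnd*, and *Ncam1* exceeded *Runx1* in 8 of 8 muscles. *Chrnb1* exceeded *Rapsn* in 7 of 8 muscles and *Runx1* exceeded *Chrng* in 7 of 8. The order of close neighbours was not held across muscles, with *Chrne* above *Chrna1* in 6 of 8, *Chrnd* above *Musk* in 3 of 8 and *Musk* above *Ncam1* in 5 of 8. A gene entered the test across all genes where it had at least 1 TPM in at least 4 of the 8 muscles, and all members but *Chrng* did.

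**Figure D1:**
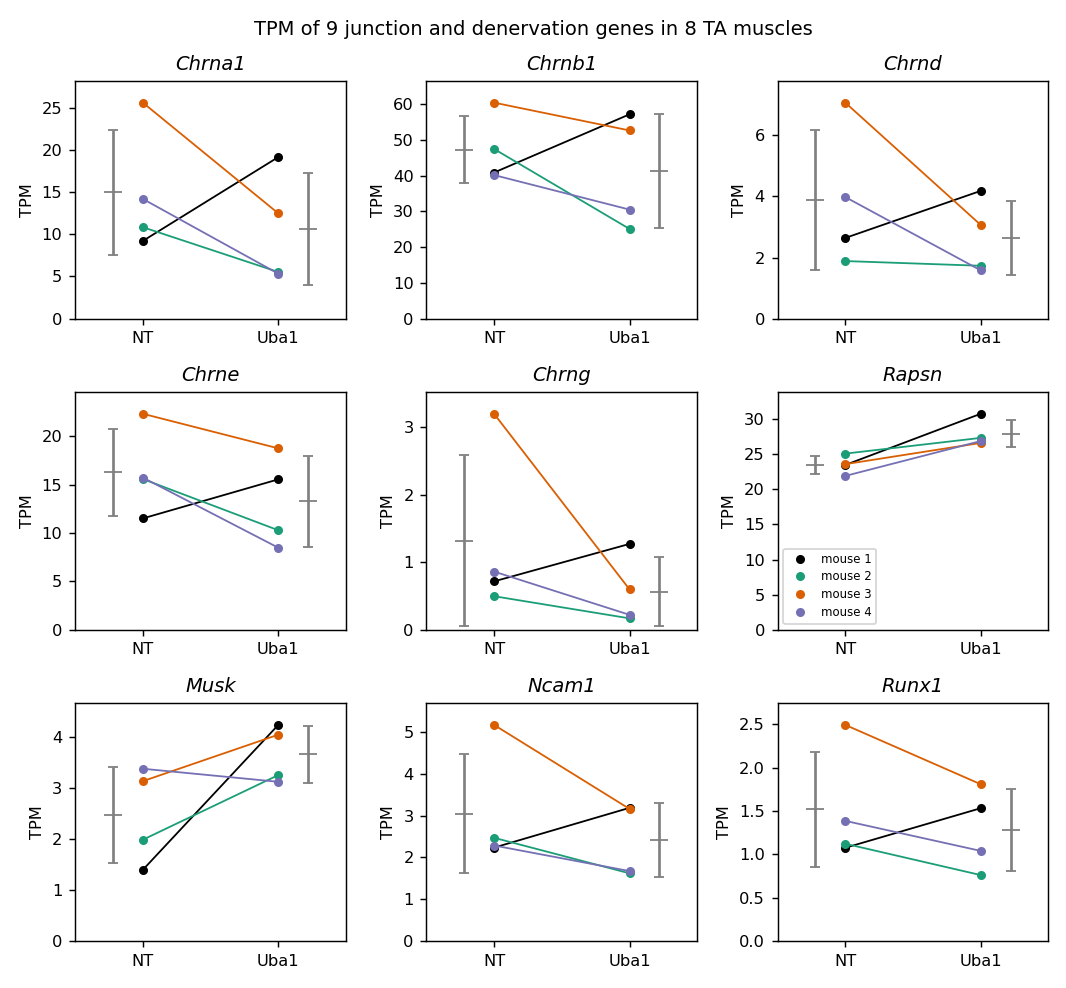
TPM of the 9 genes (vertical axes from 0, each panel on its own scale) in the NT and *Uba1* muscles of 4 mice, with a line joining both muscles of a mouse and grey bars for the mean and SD (n = 4 per group). The lines of 7 genes go up in mouse 1 and down in the other mice, those of *Rapsn* go up in all 4, and the highest NT point of *Chrng* is 3.19 TPM in mouse 3.

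No member passed the test of *Uba1* against NT muscles once p-values were adjusted over all genes. Of the 8 members tested, 0 passed an adjusted p of 0.05 by limma, against 0.026% of all 11530 genes. With the mouse as a block 0 members passed, against 0.494% of all genes. With the Kruskal-Wallis test 0 members and 0.0% of genes passed. At 4 against 4 the Kruskal-Wallis p cannot go below 0.0209, the p of *Uba1*, which adjusted to 0.180. That test could therefore pass no gene, here or in the lists below, and its adjusted p decides nothing. At an unadjusted p under 0.05, limma called 18.0% of all genes and 2 of the 8 members, *Rapsn* and *Musk*, both higher with *Uba1* siRNAs. Among all genes tested, 16.0% were called higher and 1.98% lower at that threshold. With the mouse as a block the same 2 members were called at that threshold, with 22.4% of all genes higher and 2.8% lower, and the Kruskal-Wallis test called *Rapsn* alone among the members and 19.2% of all genes. The estimates had no common sign, with 2 members above 0 and 6 below. The median log2FC of the 8 members was -0.24, beside 0.11 for all genes, and with median-ratio scaling it was -0.34 beside 0.0016. With 1 muscle left out, the members' median ran from -0.37 without *Uba1* replicate 1 and -0.36 without *Uba1* replicate 3 to -0.12 without *Uba1* replicate 4, -0.077 without *Uba1* replicate 2 and -0.051 without NT replicate 3.

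**Figure D2:**
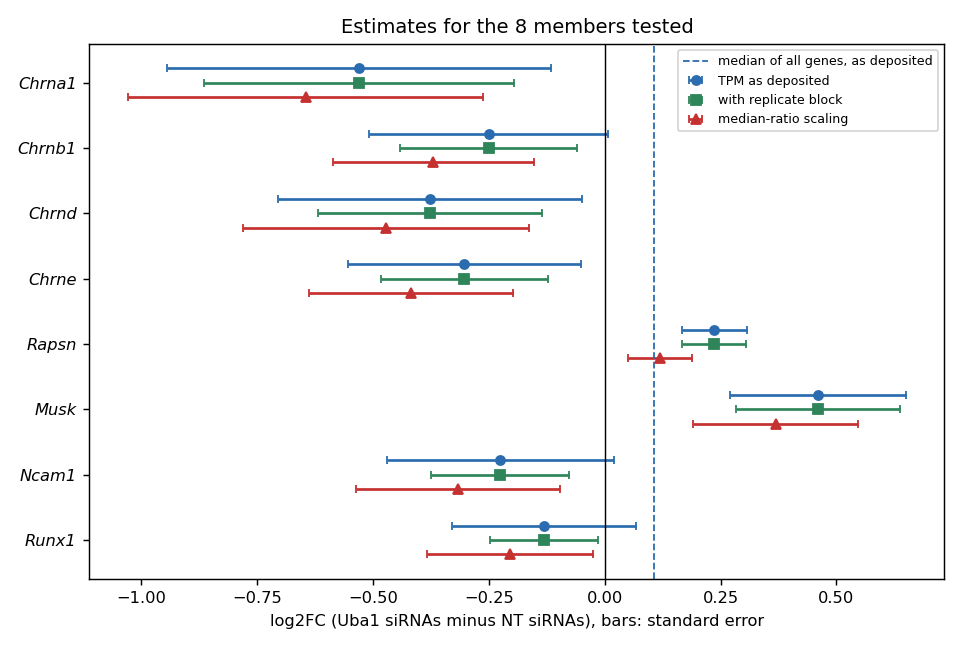
Estimated log2FC (horizontal axis, *Uba1* siRNAs minus NT siRNAs, log2(TPM + 1) scale) of the 8 members tested, as deposited (circles), with the mouse as a block (squares) and after median-ratio scaling (triangles), with bars for the SE and a dashed line at the median of all genes (0.11). *Rapsn* and *Musk* lie above 0 and the other members below, and for the values as deposited the lowest adjusted p by limma is 0.174.

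The receptor subunits had lower means in the *Uba1* muscles, by less than the spread between muscles. *Chrna1* (2:73393557-73410835 on GRCm39, minus strand), the alpha subunit, was at 9.21, 10.8, 25.6 and 14.2 TPM in NT replicates 1 to 4 and at 19.1, 5.53, 12.5 and 5.33 TPM in *Uba1* replicates 1 to 4. The values overlapped, with the highest in NT replicate 3 and the lowest in *Uba1* replicates 2 and 4. Its mean was 15.0 ± 7.39 TPM (SD, n = 4) in the NT group and 10.6 ± 6.58 TPM in the *Uba1* group, a log2FC of -0.53 (SE 0.414, adjusted p 0.489 by limma, exact permutation p 0.314). *Chrna1* was the member with the largest estimate and also the one with the widest error. Without NT replicate 3 its log2FC was -0.25, and without *Uba1* replicate 1 it was -0.85. In the GENCODE M39 annotation, 13.2% of the exonic bases of *Chrna1* also lie in exons of a long noncoding RNA on the opposite strand, and the sources used here do not state whether the strand of the reads was used.

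*Chrnb1* (11:69674860-69686773), the beta subunit, measured 40.9, 47.5, 60.4 and 40.2 TPM in the NT group and 57.1, 25.1, 52.6 and 30.5 TPM in the *Uba1* group. The NT range lay inside that of the *Uba1* muscles except for NT replicate 3, and *Uba1* replicates 2 and 4 were again the lowest. The means were 47.2 ± 9.39 and 41.3 ± 15.9 TPM (SD, n = 4), with a log2FC of -0.25 (SE 0.258, adjusted p 0.601 by limma, exact permutation p 0.429). Leaving out *Uba1* replicate 2 moved the log2FC of *Chrnb1* to -0.044, leaving out NT replicate 3 to -0.13 and leaving out *Uba1* replicate 1 to -0.43. *Chrnd* (1:87118306-87127795), the delta subunit, whose gene lies 4583 bases upstream of *Chrng*, was at 2.64, 1.89, 7.07 and 3.98 TPM in the NT muscles and at 4.18, 1.73, 3.07 and 1.58 TPM in the *Uba1* muscles. NT replicate 3 stood well above the rest and the groups overlapped. The log2FC of *Chrnd* was -0.38 (SE 0.328, adjusted p 0.534 by limma, exact permutation p 0.400), and it ran from -0.59 without NT replicate 2 and -0.57 without *Uba1* replicate 1 to -0.099 without NT replicate 3.

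The subunits that mark the adult and the fetal receptor did not part ways beyond their error. *Chrne* (11:70505707-70510125), the adult epsilon subunit, was at 11.5, 15.6, 22.3 and 15.7 TPM in the NT muscles and at 15.6, 10.3, 18.8 and 8.49 TPM in the *Uba1* muscles. *Uba1* replicates 2 and 4 were below all NT muscles and the other two were within the NT range. The log2FC of *Chrne* was -0.30 (SE 0.251, adjusted p 0.514 by limma, exact permutation p 0.343). It was -0.13 without *Uba1* replicate 4, -0.15 without NT replicate 3 and -0.48 without *Uba1* replicate 3. *Chrng* (1:87132379-87140416), the fetal gamma subunit, was at 0.716, 0.496, 3.19 and 0.861 TPM in the NT muscles and at 1.27, 0.169, 0.597 and 0.221 TPM in the *Uba1* muscles. Only NT replicate 3 and *Uba1* replicate 1 were above 1 TPM, which is why *Chrng* stayed under the filter. Its difference in mean log2(TPM + 1) was -0.49 (exact permutation p 0.286), and -0.16 without NT replicate 3. With a pseudocount of 0.1 TPM in place of 1, the difference for *Chrng* was -1.06. Fitted without the filter, its log2FC was -0.49 (SE 0.345, adjusted p 0.581 by limma).

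The share of *Chrng* in the sum of *Chrng* and *Chrne* compares the fetal and adult forms within a muscle, and scaling of the muscle does not alter it. It was 5.85, 3.09, 12.5 and 5.19% in NT replicates 1 to 4 and 7.55, 1.62, 3.09 and 2.54% in *Uba1* replicates 1 to 4. Epsilon transcripts predominated in every muscle, and the highest gamma share was that of NT replicate 3. The mean share was 6.66 ± 4.08% (SD, n = 4) with NT siRNAs and 3.70 ± 2.64% with *Uba1* siRNAs. The difference of -2.96 percentage points was within the spread (two-sided exact permutation test, p = 0.314, with 0.0286 the smallest p that 4 against 4 allows), was negative in 3 of 4 mice, and was -1.01 without NT replicate 3.

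All 5 subunits together summed to 64.9, 76.3, 119 and 74.9 TPM in the NT muscles and to 97.3, 42.8, 87.5 and 46.1 TPM in the *Uba1* muscles. The lowest sums were those of *Uba1* replicates 2 and 4 and the highest that of NT replicate 3. The proportions of the most abundant subunits varied less than the sum, with *Chrnb1* at 50.9 to 66.1% of the subunit TPM in every muscle, *Chrne* at 16.0 to 24.04% and *Chrna1* at 11.6 to 21.6%. *Chrnd* made up 2.47 to 5.96% and *Chrng* 0.395 to 2.69%. The assembled receptor holds a fixed number of each subunit, so these mRNA proportions are not those of the protein.

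**Figure D3:**
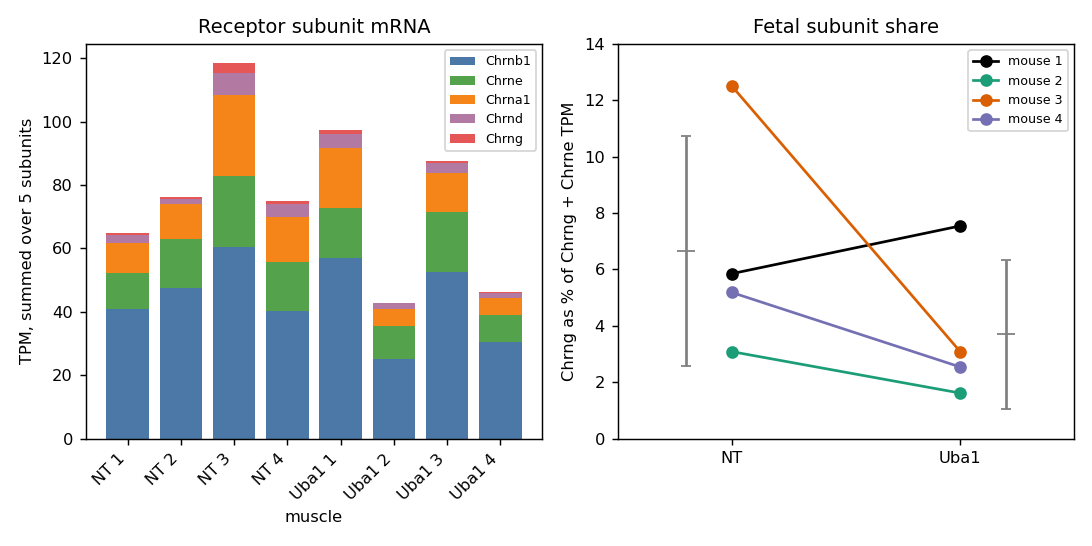
Left, summed TPM of the 5 receptor subunits in each of the 8 muscles, with 1 colour per subunit. Right, *Chrng* as a percentage of *Chrng* plus *Chrne* TPM in the NT and *Uba1* muscles, with a line joining both muscles of a mouse and grey bars for the mean and SD (n = 4), in which the highest of the 4 NT values is 12.5% and the highest of the 4 *Uba1* values is 7.55%.

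The genes of the clustering machinery were the members with estimates above 0. *Rapsn* (2:90865892-90876082, plus strand), which encodes the scaffold rapsyn, was at 23.5, 25.1, 23.6 and 21.9 TPM in the NT muscles and at 30.8, 27.3, 26.6 and 26.9 TPM in the *Uba1* muscles. Every *Uba1* muscle was above every NT muscle, and *Rapsn* was the only member whose groups did not overlap, where 10.6% of all genes tested had no overlap in the higher direction and 1.01% in the lower. Its mean was 23.5 ± 1.30 TPM (SD, n = 4) in the NT group and 27.9 ± 1.94 in the *Uba1* group. The log2FC was 0.24 (SE 0.0701, adjusted p 0.174 by limma), with an exact permutation p of 0.0286, the smallest possible. *Rapsn* was higher in 4 of 4 mice, which held for 32.2% of all genes, and no member was lower in 4 of 4, which held for 2.98%. After median-ratio scaling its log2FC was 0.12 and the groups overlapped, from 23.1 to 26.5 in the NT muscles and from 23.8 to 28.2 scaled TPM in the *Uba1* muscles (exact permutation p 0.0857). With this scaling, 2.71% of all genes had no overlap in the higher direction. With TPM rescaled without mitochondrial genes, the exact permutation p was 0.0571. Relative to its mean, *Rapsn* varied least among the members, with a coefficient of variation of 5.52% in the NT group and 6.94% in the *Uba1* group.

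*Musk* (4:58285931-58377847, plus strand), the kinase that agrin activates, was at 1.39, 1.98, 3.13 and 3.38 TPM in the NT muscles and at 4.24, 3.25, 4.04 and 3.12 TPM in the *Uba1* muscles. NT replicates 1 and 2 were lowest, *Uba1* replicates 1 and 3 highest, and the other NT and *Uba1* muscles overlapped. Its mean was 2.47 ± 0.941 TPM (SD, n = 4) in the NT group and 3.66 ± 0.559 in the *Uba1* group. The log2FC of *Musk* was 0.46 (SE 0.189, adjusted p 0.250 by limma, exact permutation p 0.143), and it was higher in 3 of 4 mice, the exception being mouse 4. With median-ratio scaling the log2FC was 0.37, and without NT replicate 1 it was 0.30. The ratio of *Rapsn* to the summed receptor subunits, both in TPM, was 0.361, 0.329, 0.199 and 0.292 in the NT muscles and 0.316, 0.638, 0.304 and 0.583 in the *Uba1* muscles. This ratio was highest in *Uba1* replicates 2 and 4, the muscles with the lowest subunit sums. Since *Rapsn* varied much less than the subunit sum, the ratio largely follows its own denominator.

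The other genes of the agrin, MuSK and rapsyn pathway were close to the background of all genes. Of a list of 32 genes without the members, 30 were tested and 0 passed the adjusted p by limma, with the mouse as a block or by the Kruskal-Wallis test. At an unadjusted p under 0.05, limma called 5 of the 30 genes higher and 0 lower (6 and 0 with the block). The Kruskal-Wallis test called 7 of the 30. Of all genes, limma called 16.0% higher and 1.98% lower (22.4 and 2.8% with the block), and the Kruskal-Wallis test called 19.2%. The median log2FC of the list was 0.095 and -0.018 after median-ratio scaling, with 24 genes above 0 and 6 below as deposited. With 1 muscle left out, the median ran from 0.044 without *Uba1* replicate 3 to 0.15 without *Uba1* replicate 4. *Lrp4*, the agrin receptor on the fibre, was at 2.57, 2.99, 2.92 and 2.86 TPM in the NT muscles and at 4.19, 4.86, 3.07 and 3.88 TPM in the *Uba1* muscles. All *Uba1* values of *Lrp4* were above all NT values, as for 10.6% of all genes tested, although after median-ratio scaling the groups overlapped. The log2FC of *Lrp4* was 0.37 (SE 0.111, adjusted p 0.174 by limma, exact permutation p 0.0286), and 0.28 after median-ratio scaling. *Dok7*, the adaptor that activates MuSK from inside the cell, had a log2FC of 0.25 (adjusted p 0.359 by limma), which was 0.14 after median-ratio scaling, and was higher in 4 of 4 mice, as 32.2% of all genes were. *Agrn*, which encodes agrin, had a log2FC of 0.15 (adjusted p 0.428), which was 0.048 after median-ratio scaling, and was also higher in 4 of 4 mice. *Src*, a kinase that phosphorylates the receptor, had a log2FC of 0.25 (adjusted p 0.390), which was 0.16 after median-ratio scaling. *Lrp4*, *Dok7* and *Src* had the list's largest estimates in size as deposited, whereas after median-ratio scaling these were *Pak1* (-0.31), *Etv5* (-0.29) and *Prkar1a* (-0.29).

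Genes of the synaptic matrix, scaffold and enzymes also lay near the background of all genes. Of 34 genes, 29 were tested, and 0 passed the adjusted p by limma, with the block or by the Kruskal-Wallis test. The median log2FC was 0.080 (-0.029 after median-ratio scaling). With 1 muscle left out, it ran from 0.030 without *Uba1* replicate 3 to 0.12 without *Uba1* replicate 4. At an unadjusted p under 0.05, limma called 3 of the 29 higher and 1 lower (4 and 1 with the block), and the Kruskal-Wallis test called 4. The shares of all genes were 16.0% higher and 1.98% lower (22.4 and 2.8% with the block), and 19.2% by the Kruskal-Wallis test. The gene called lower was *Vamp1*, which encodes a synaptic vesicle protein of motor terminals and is named here after its values were seen. *Vamp1* was at 6.80 ± 0.369 TPM (SD, n = 4) in the NT group and 5.91 ± 0.436 in the *Uba1* group (log2FC -0.18, adjusted p 0.249 by limma). Its groups did not overlap, as for 1.01% of all genes in the lower direction. It was lower in 4 of 4 mice, as 2.98% of all genes were. *Ache*, the acetylcholinesterase that ends transmission, was at 24.4 ± 3.71 TPM (SD, n = 4) in the NT group and 24.1 ± 7.16 in the *Uba1* group. *Colq*, the collagen tail that holds the enzyme in the cleft, was at 4.53 ± 0.133 TPM in the NT group and 4.07 ± 1.42 in the *Uba1* group. As deposited, the list's largest estimates in size were those of *Dmd*, which encodes dystrophin (log2FC 0.24, adjusted p 0.353 by limma), *Gfpt1*, a hexosamine synthesis enzyme mutated in congenital myasthenia (0.23, adjusted p 0.197), and *Alg2*, a glycosylation enzyme (0.22, adjusted p 0.285). After median-ratio scaling these were 0.13, 0.12 and 0.11, and the largest were those of *Vamp1* (-0.28, adjusted p 0.138 by limma) and *Colq* (-0.27).

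*Ncam1* and *Runx1*, which denervation is known to induce, had estimates below 0 in the *Uba1* muscles, within their error. *Ncam1* (9:49413436-49710357, minus strand), a cell adhesion molecule that spreads along denervated fibres, was at 2.23, 2.47, 5.17 and 2.28 TPM in the NT muscles and at 3.18, 1.62, 3.16 and 1.67 TPM in the *Uba1* muscles. NT replicate 3 was far above the other NT muscles, and the groups overlapped. The log2FC of *Ncam1* was -0.23 (SE 0.245, adjusted p 0.620 by limma, exact permutation p 0.457) and ran from -0.34 without *Uba1* replicate 1 to -0.11 without *Uba1* replicate 2 and -0.0022 without NT replicate 3. *Runx1* (16:92398354-92623037, minus strand), a transcription factor that limits atrophy of denervated fibres, was at 1.08, 1.12, 2.50 and 1.39 TPM in the NT muscles and at 1.53, 0.761, 1.81 and 1.04 TPM in the *Uba1* muscles. The groups overlapped and NT replicate 3 was again the highest. The log2FC of *Runx1* was -0.13 (SE 0.198, adjusted p 0.721 by limma, exact permutation p 0.571), and it ran from -0.24 without *Uba1* replicate 3 to -0.013 without *Uba1* replicate 2 and 0.038 without NT replicate 3.

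A wider list of 30 genes of the denervation response, with the members left out, held no gene that passed the test. In all, 26 were tested and 0 passed the adjusted p by limma, with the block or by the Kruskal-Wallis test. At an unadjusted p under 0.05, limma called 1 of the 26 higher and 4 lower, where 16.0% of all genes were called higher and 1.98% lower. With the block it called 3 higher and 7 lower, where 22.4 and 2.8% of all genes were called, and the Kruskal-Wallis test called 2, where it called 19.2% of all genes. The median log2FC was -0.16 (-0.26 after median-ratio scaling), with 8 genes above 0 and 18 below, and with 1 muscle left out it ran from -0.30 without NT replicate 1 and -0.27 without *Uba1* replicate 3 to -0.032 without *Uba1* replicate 2. The genes with the largest estimates in size were *Mt2* and *Mt1*, which encode metal-binding metallothioneins, and *Actc1*, the cardiac actin of immature fibres. *Mt2* was at 128 ± 34.4 TPM (SD, n = 4) in the NT group and 49.0 ± 19.7 in the *Uba1* group (log2FC -1.41, SE 0.301, adjusted p 0.129 by limma), and lower in 4 of 4 mice, as 2.98% of all genes were. For *Mt1* the log2FC was -0.89 (adjusted p 0.165) and for *Actc1* -0.81 (adjusted p 0.525). *Myog*, which encodes myogenin, was at 18.0 ± 6.84 and 15.1 ± 9.31 TPM (log2FC -0.39, adjusted p 0.630). The gene called higher by limma without the block was *Fbxo32* (log2FC 0.35, adjusted p 0.236). It was higher in 4 of 4 mice, as 32.2% of all genes were, and its log2FC was 0.23 after median-ratio scaling. *Myod1* also had an estimate above 0 (log2FC 0.34, adjusted p 0.319 by limma), which was 0.22 after median-ratio scaling.

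**Figure D4:**
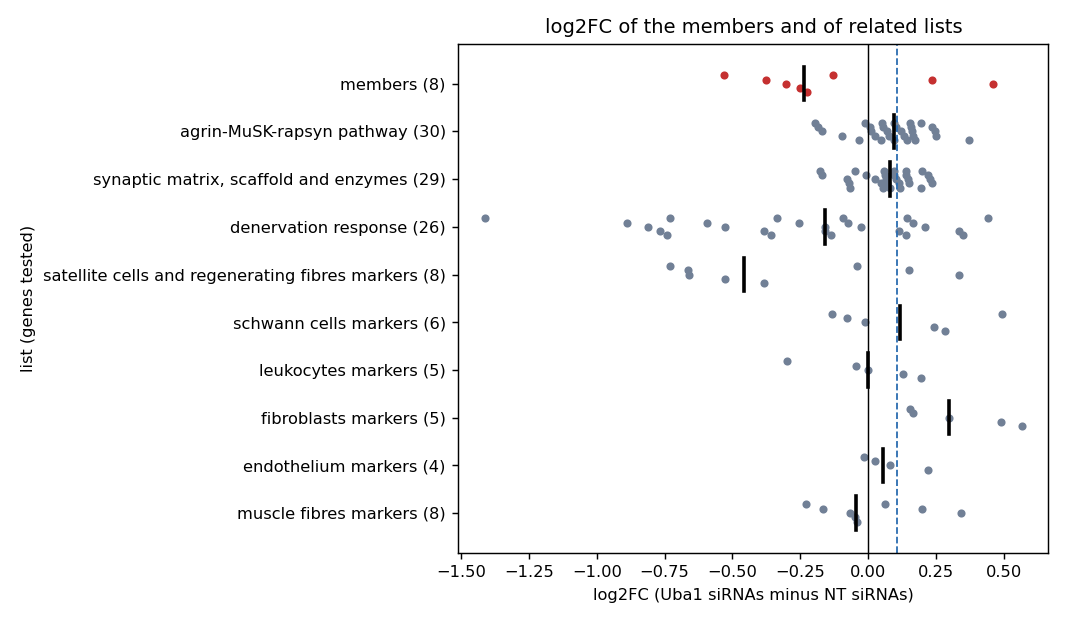
The log2FC (horizontal axis, *Uba1* siRNAs minus NT siRNAs) of the genes tested in each list, with the number tested in brackets, a black bar at the list's median and a dashed line at the median of all 11530 genes (0.11). The medians run from -0.46 for satellite cells and regenerating fibres to 0.30 for fibroblasts, with the members at -0.24.

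Across mice, 7 of the 9 genes shared 1 pattern. The 5 subunits, *Ncam1* and *Runx1* were each higher with *Uba1* siRNAs in mouse 1 and lower in mice 2 to 4, a pattern that 6.52% of all genes tested had. For *Chrna1* the difference within a mouse on the log2(TPM + 1) scale was 0.98, -0.86, -0.98 and -1.26 in mice 1 to 4. For *Chrnb1* it was 0.47, -0.89, -0.20 and -0.39, and for *Runx1* it was 0.29, -0.27, -0.31 and -0.23. Over the 8 muscles, Pearson's r among the 9 genes ran from -0.255 to 0.955 with a median of 0.791 over 36 pairs of genes. The median over all pairs of genes tested was 0.317. These values only describe 8 muscles, which are both legs of 4 mice. Among the 7 genes, which were set apart by this same pattern, r ran from 0.751 to 0.955. *Musk* had r of 0.140 to 0.371 with the 7 genes, and *Rapsn* had r of -0.255 to -0.0268. The genes outside all lists whose pattern was most like the mean of the tested members were *Nop16* (r 0.975), *C1galt1c1* (0.971), *Eif3l* (0.969), *Akirin2* (0.967) and *Arl6ip5* (0.966), out of 11530 genes and over 8 muscles.

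Several markers of satellite cells and regenerating fibres were high and low in the same muscles as the receptor subunits, whereas *Pax7* and *Myod1* were not. The list holds 8 markers, 4 of which (*Myog*, *Myod1*, *Myh3* and *Myh8*) are also in the denervation list. All 8 markers were tested and 0 passed the adjusted p by limma, with the block or by the Kruskal-Wallis test, and 0 had an unadjusted p under 0.05 by limma or the Kruskal-Wallis test. With the mouse as a block, 3 of the 8 had an unadjusted p under 0.05 by limma, *Mymk* and *Myh3* with estimates below 0, where 2.8% of all genes were called lower, and *Myod1* above 0, where 22.4% were called higher. The summed level of all 8 was 80.7, 58.4, 113 and 57.5 TPM in the NT muscles and 107, 36.3, 89.6 and 54.1 TPM in the *Uba1* muscles, and it was lower with *Uba1* siRNAs in mice 2 to 4. NT replicate 3 had the highest sum and *Uba1* replicate 2 the lowest, as for the receptor subunits. The list's median log2FC was -0.46, and it was -0.76 without *Uba1* replicate 1, -0.75 without *Uba1* replicate 3, -0.30 without *Uba1* replicate 4, -0.22 without NT replicate 3 and -0.0049 without *Uba1* replicate 2. Across all genes tested, the median r with the mean of the tested members was 0.365. With that mean, *Mymk*, which drives myoblast fusion, had r of 0.885, *Mymx*, its partner in fusion, 0.879, and *Myog* 0.849, and 95.6% of all genes had an r below that of *Myog*. *Myh3*, the embryonic myosin, had r of 0.728 (85.2% of all genes had a lower one), and *Myf5*, a factor of satellite cells and myoblasts, 0.689 (81.5% had a lower one), whereas *Pax7*, the satellite cell factor, had 0.371 and *Myod1*, the factor of activated myoblasts, 0.0955. *Myh3* was at 12.1 ± 6.98 TPM in the NT group and 8.25 ± 5.91 in the *Uba1* group (log2FC -0.73, adjusted p 0.541 by limma). None of the 8 markers was at 0 in all muscles, and their part in the values of the receptor genes was not tested.

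**Figure D5:**
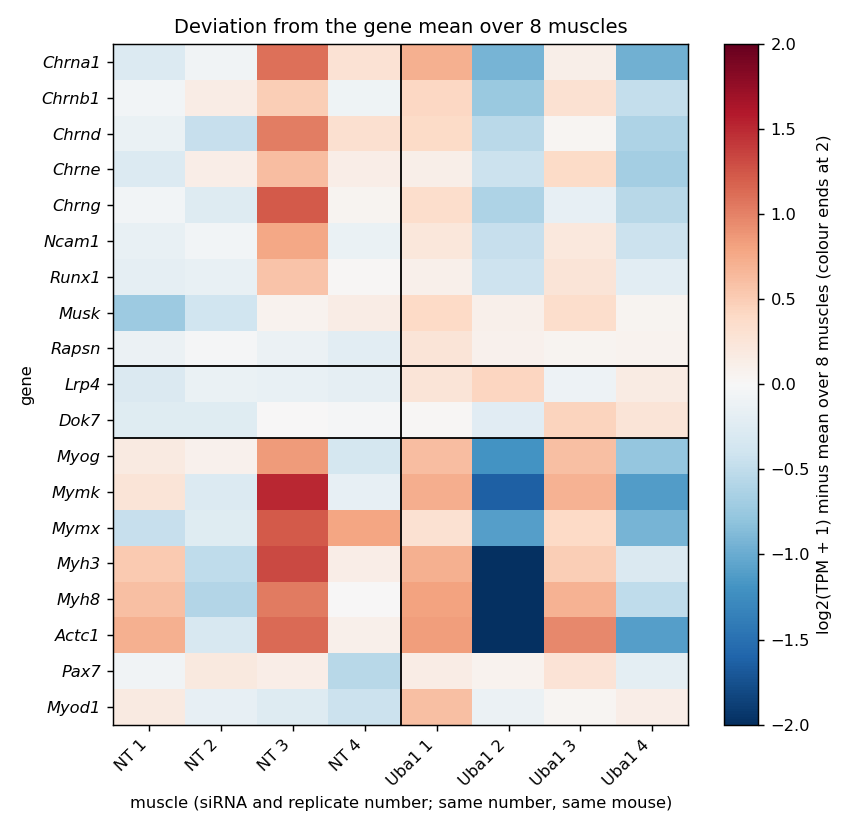
Deviation of log2(TPM + 1) from each gene's mean over the 8 muscles (colour, red above and blue below the mean, ending at 2) for the 9 members, *Lrp4*, *Dok7* and 8 genes of regeneration or immature fibres. *Chrna1*, *Chrnd*, *Ncam1*, *Mymk* and *Myh3* are red in NT 3 and blue in *Uba1* 2, whereas *Rapsn* is near its mean in every column.

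Among markers of other cells, only those of fibroblasts had a summed level that differed between the groups in the same direction in all 4 mice. The 8 muscle fibre markers summed to between 96130 and 101670 TPM in the NT muscles and to between 80354 and 104380 TPM in the *Uba1* muscles, so the labelled tissue was clear in every sample. Schwann cell markers, of which 6 of 10 were tested, summed to 46.9 to 73.5 TPM and to 38.6 to 87.1 TPM. Leukocyte markers, of which 5 of 8 were tested, summed to 160, 192, 329 and 102 TPM in the NT muscles and to 241, 100.2, 350.1 and 118 TPM in the *Uba1* muscles. As for the receptor subunits, NT replicate 3 was the highest NT muscle and *Uba1* replicates 2 and 4 were the lowest *Uba1* muscles. Unlike the subunit sum, the leukocyte sum was highest of all in *Uba1* replicate 3. It was lower with *Uba1* siRNAs in 1 of 4 mice. The 5 fibroblast markers summed to 272 to 518 TPM in the NT muscles and to 382 to 645 TPM in the *Uba1* muscles. Their sum was higher with *Uba1* siRNAs in 4 of 4 mice, a direction that 32.2% of all single genes tested had. Their median log2FC was 0.30, and it was 0.19 after median-ratio scaling and 0.18 after quantile normalization. Without *Uba1* replicate 3 it was 0.098 and without NT replicate 3 it was 0.48. The median log2FC was 0.12 for the Schwann cell markers, 0.0006 for the leukocyte markers, 0.053 for the 4 endothelial markers and -0.044 for the muscle fibre markers. After median-ratio scaling these were 0.026, -0.12, -0.062 and -0.17, and for the Schwann cell markers the median was -0.11 when a mean of 5 TPM was required. Single muscles moved these medians, from -0.32 without *Uba1* replicate 3 to 0.30 without NT replicate 3 for leukocytes, from -0.020 without *Uba1* replicate 1 to 0.23 without *Uba1* replicate 4 for Schwann cells, from -0.019 without NT replicate 4 to 0.12 without NT replicate 1 for endothelium, and from -0.094 without *Uba1* replicate 3 to 0.019 without *Uba1* replicate 2 for muscle fibres. None of these markers passed the adjusted p by limma, with the block or by the Kruskal-Wallis test, and at an unadjusted p under 0.05 limma called 1 Schwann cell marker (*Ngfr*) and 1 fibroblast marker (*Lum*), both higher, and the Kruskal-Wallis test 0. With the block, limma called 2 Schwann cell and 3 fibroblast markers, all higher, where 22.4% of all genes were called higher (16.0% without the block). The axon markers *Chat*, *Slc18a3* and *Nefl* were listed at 0 in all 8 muscles. None of the 8 axon markers reached the filter, and whether the muscles were innervated was not tested. The part of these cells in the values of the 9 genes was not tested.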

How the data were processed

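Total RNA of 8 mouse TA muscles (4 per group) was sequenced as 100-bp paired-end reads. After trimming and alignment to GRCm39 (mm39) in CLC Genomics Workbench, the authors deposited one TPM value per gene and muscle. The annotation, the strand setting and the handling of reads that match several genes are not given in the sources used here.

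Groups were taken from the sample descriptions, since the treatment tags of 3 *Uba1* muscles name UBA2 to UBA4 while their titles and descriptions name UBA1. Genes with at least 1 TPM in at least 4 of 8 muscles (11530 of 41709) were fitted on log2(TPM + 1) with limma 3.58.1 (lmFit and eBayes with trend, two-sided) in R 4.3.3, with Benjamini-Hochberg adjustment over all of them. The added 1 TPM understates changes of low genes. Single genes and the gamma share were also tested with a two-sided exact permutation test over all 70 splits (scipy 1.17.1, Python 3.11.15). The alternatives were a pseudocount of 0.1 TPM, no filter, a mean of 5 TPM or more, median-ratio and quantile scaling, rescaling without mitochondrial genes, the mouse as a block, the Kruskal-Wallis test named in the study's methods, and leaving out each muscle in turn. The fitting code was tested on simulated data.

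Equal replicate numbers mark both legs of 1 mouse, per the titles and the study's methods. The deviations of same-numbered muscles from their group means correlated at -0.00037, 0.20, 0.58 and 0.54 across genes. The members and lists were chosen with earlier results of these data known. Named besides the members were *Uba1*, up to 3 genes with the largest absolute log2FC per list, genes needed by function, and the 5 genes most like the members' mean. Other genes were named for a count or a cell type after their values were seen. Positions are from GENCODE M39 on GRCm39, and promoter windows from RefSeq on GRCm38.p6.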

Additional observations from a re-analysis of the deposited data

Results flagged for a closer look

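In a search of 56 groups of 4 values for a value set far apart from the other 3 by Dixon's criterion, 3 were found. Chance gives about 1 in 20 groups, or 2.8 of 56, so the number found is about what chance gives. *Chrng* was at 3.19 TPM in NT replicate 3, against 0.496 to 0.861 TPM in the other NT muscles. *Ncam1* was at 5.17 TPM in the same muscle, against 2.23 to 2.47 TPM in the other NT muscles. *Colq* was at 4.33 TPM in NT replicate 2, the lowest of its group, whose other values lay between 4.59 and 4.60 TPM.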

How the results depend on the processing

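The design had 4 muscles per group, the leg could not be told apart from the siRNAs, and without read counts the counting error of low genes such as *Chrng* and *Runx1* is unknown. No member passed the adjusted p in any setting run. Of all genes, 3 passed it, against 11 when a mean of 5 TPM was required and 13 without mitochondrial genes. After median-ratio scaling 23 passed, and after quantile normalization 28. By the Kruskal-Wallis test 0 passed, where no gene could with 4 muscles per group. The replicate block gave 57, or 76 once combined with median-ratio scaling, and gave 0 if unfiltered, an alternative chosen after seeing the data. Leaving out 1 muscle gave 2 to 39 genes, with 39 without *Uba1* replicate 4, 6 without NT replicate 1, and 5 without NT replicate 3 or *Uba1* replicate 2. Members at an unadjusted p under 0.05 numbered 2, and 0 with median-ratio scaling. They numbered 1 when a mean of 5 TPM was required (which leaves *Musk* untested), after quantile normalization, by the Kruskal-Wallis test, and for the replicate block either combined with median-ratio scaling (*Chrne*, lower, p 0.0384 by limma, adjusted p 0.293) or unfiltered (*Rapsn*). Leaving out 1 muscle gave 1 to 2, with *Rapsn* alone without NT replicate 1 or 2 or *Uba1* replicate 1 or 3. The log2FC of *Runx1* ran from -0.24 to 0.038 when 1 muscle was left out, reversing without NT replicate 3 (limma adjusted p 0.904), and every other member kept its sign in all settings. In exact tests, added after seeing the data, *Rapsn* missed 0.05 with median-ratio scaling (exact permutation p 0.0857, log2FC 0.12). It also missed it without mitochondrial genes (exact permutation p 0.0571, log2FC 0.26). With the replicate block its exact p was 0.125 (log2FC 0.24), the smallest that 4 pairs allow. In all runs without 1 muscle its exact p was 0.0571 (log2FC 0.19 to 0.27), the smallest that 3 against 4 allows. The gamma share, expressed as a log2 ratio, differed by -0.73. At the filter and scaling of the report, the replicate block changed no call of a member in the limma fit, at the adjusted or the unadjusted p. The cause of these shifts was not tested.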

Other observations

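The neuronal nicotinic subunits, which form receptors in the nervous system and in immune cells rather than at the junction, were nearly absent. None of 11 reached the filter, the highest value was 0.599 TPM (*Chrna4* in *Uba1* replicate 2), and *Chrna3*, *Chrna5*, *Chrna6* and *Chrnb3* were listed at 0 in all 8 muscles. Among 5 relatives and partners of *Runx1* and *Ncam1*, *Cbfb*, the partner of Runx factors in DNA binding, was the one that reached the filter, at 52.5 ± 9.53 TPM (SD, n = 4) with NT siRNAs and 61.7 ± 4.01 with *Uba1* siRNAs, with a log2FC of 0.24 (SE 0.118, adjusted p 0.308 by limma) that was 0.12 after median-ratio scaling. It was higher in 4 of 4 mice, as 32.2% of all genes were.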
